A study of Homo sapiens with 6 samples.

Results

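The unfolded protein and ATF4 stress response was followed through 10 genes, picked by symbol from the 16390 genes in the read count files. ATF4, DDIT3, TRIB3, ASNS and CHAC1 form the ATF4 arm, and HSPA5, HSP90B1, XBP1, DNAJB9 and HERPUD1 form the ER chaperone arm. All 10 were listed, and all 10 passed the filter on low counts. The samples were SW780 cells, a human bladder cancer cell line that serves as a luminal type. In 3 libraries the cells had been exposed to RC48 at 25 µg/ml, the dose given in the study's methods, and the other 3 libraries were of Control cells, with no agent named. RC48 (disitamab vedotin) joins an antibody against ERBB2 to monomethyl auristatin E, a microtubule inhibitor. The exposure time is not stated, a single cell line was used, and nothing says that the libraries came from separate cultures, so the p-values measure only the spread between these libraries.

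Secreted and membrane proteins fold in the endoplasmic reticulum (ER), and unfolded protein there is sensed by PERK (EIF2AK3), IRE1 (ERN1) and ATF6. PERK and related kinases phosphorylate the initiation factor eIF2, which lowers protein synthesis overall and favours translation of ATF4, a transcription factor for genes of amino acid supply and of stress signalling. IRE1 splices the XBP1 transcript, and spliced XBP1 and cleaved ATF6 switch on chaperones and degradation factors of the ER. ATF4 is thus governed largely by translation and XBP1 by splicing, and counts of reads per gene record neither.

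The 6 libraries held between 16453233 and 17988030 estimated counts each, and levels are given as CPM, counts scaled to a common library size after TMM scaling of the libraries. Control replicates 1 and 2 were the closest pair of a group (chi-square divided by its degrees of freedom, 1.5, where sampling noise alone gives about 1), and RC48 replicates 1 and 2 were the farthest apart (140). The log2 ratio of an RC48 library to the Control mean followed transcript GC content across 13000 genes, with Spearman's rho of 0.74 in RC48 replicate 1, −0.01 in replicate 2 and 0.57 in replicate 3. RC48 replicates 1 and 3 thus share a GC trend that RC48 replicate 2 lacks, although by chi-square replicate 3 was nearer to replicate 2 (23.2) than to replicate 1 (64.7). Values after a correction for each library's GC trend, and without RC48 replicate 1, are given where they change a result. The correction cannot tell a technical trend from an effect of RC48 that runs with GC content. The luminal genes KRT8, KRT18 and GATA3 were abundant. The summed CPM of 10 luminal markers, mostly KRT8 and KRT18, was 4201 to 4777 in Control and 4330 to 4818 in RC48. Of these, KRT20 (means 1.98 and 0.67 CPM) was called lower, at −1.55 (edgeR adjusted p = 0.0489). FOXA1 (147 and 108.5 CPM) and EPCAM (148.5 and 106 CPM) also lay lower in every RC48 library, uncalled. UPK3A, too low to test, lay higher. The 4 listed basal markers summed to 333 to 352 and 310 to 343 CPM. The 5 fibroblast markers listed summed to 444 to 475 and 444.5 to 558 CPM, with COL1A1 and COL3A1 higher and LUM lower in RC48. Of 10 leukocyte markers, 6 were listed and summed to 1.16 to 1.51 CPM in Control and 4.91 to 7.90 CPM in RC48, with the defining marker PTPRC at or near 0 in every library. Most of the difference was the 1 gene ITGAM (0 to 0.29 CPM in Control and 3.08 to 4.19 CPM in RC48). CD3E (0.23 to 0.41 and 0.63 to 1.40 CPM) and CD14 (0.24 to 0.46 and 0.67 to 1.40 CPM) also lay higher in every RC48 library, but neither was called. LYZ (0.41 to 0.59 and 0.34 to 0.79 CPM) and NKG7 (at most 0.12 CPM) overlapped. The part of these genes in the results was not tested. In bulk RNA, fewer cells of a kind and less RNA per cell cannot be told apart.

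The promoters of 5 members are shown because they carry the sequence elements through which ATF4, ATF6 and XBP1 are known to reach these arms. The sequences are the 250 bases before a transcription start in RefSeq (GRCh38.p14), 5′ to 3′ on the strand of the gene, with the matches in capitals. ASNS (chr7:97872409-97872658, minus strand, inside the annotated gene, before 1 of its starts) and CHAC1 (chr15:40953221-40953470, plus strand) hold the core of the C/EBP-ATF response element (CARE), TGATGNAA or its reverse complement. HSPA5 (chr9:125241344-125241593, minus strand) and HSP90B1 (chr12:103930160-103930409, plus strand) hold the ER stress response element (ERSE), CCAAT and CCACG 9 bases apart, with 1 copy in HSPA5 and 2 in HSP90B1. HERPUD1 (chr16:56931892-56932141, plus strand) holds ERSE-II, ATTGG and CCACG 1 base apart, and a CARE core upstream of it.
ASNS: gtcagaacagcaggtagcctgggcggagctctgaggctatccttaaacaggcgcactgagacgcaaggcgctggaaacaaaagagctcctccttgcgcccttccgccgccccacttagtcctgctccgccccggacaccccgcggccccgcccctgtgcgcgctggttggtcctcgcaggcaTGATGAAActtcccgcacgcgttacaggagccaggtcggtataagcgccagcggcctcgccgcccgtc
CHAC1: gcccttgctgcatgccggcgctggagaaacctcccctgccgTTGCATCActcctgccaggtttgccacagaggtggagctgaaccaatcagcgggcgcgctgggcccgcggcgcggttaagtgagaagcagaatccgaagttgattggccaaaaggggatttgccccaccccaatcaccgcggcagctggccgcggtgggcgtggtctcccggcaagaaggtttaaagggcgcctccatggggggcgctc
HSPA5: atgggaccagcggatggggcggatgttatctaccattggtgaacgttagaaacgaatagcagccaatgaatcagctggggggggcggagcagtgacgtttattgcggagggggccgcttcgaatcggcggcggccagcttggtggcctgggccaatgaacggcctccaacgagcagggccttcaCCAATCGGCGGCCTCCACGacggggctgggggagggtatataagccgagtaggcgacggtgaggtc
HSP90B1: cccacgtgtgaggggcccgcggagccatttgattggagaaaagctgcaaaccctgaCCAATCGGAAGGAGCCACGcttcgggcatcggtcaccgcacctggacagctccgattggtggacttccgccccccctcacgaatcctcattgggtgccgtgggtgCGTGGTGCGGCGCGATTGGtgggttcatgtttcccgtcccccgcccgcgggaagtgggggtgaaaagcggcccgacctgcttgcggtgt
HERPUD1: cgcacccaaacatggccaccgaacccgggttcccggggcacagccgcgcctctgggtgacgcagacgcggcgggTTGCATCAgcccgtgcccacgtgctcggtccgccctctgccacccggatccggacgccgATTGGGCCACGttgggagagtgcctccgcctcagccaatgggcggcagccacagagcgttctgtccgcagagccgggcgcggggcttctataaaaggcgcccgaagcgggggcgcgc
On either strand, the CARE core was found in 3.14% of 35116 promoter windows of this length, ERSE in 0.074% and ERSE-II in 0.0513%. XBP1 held an ERSE as well, between 52 and 34 bases before its start. The windows of ATF4, DDIT3, TRIB3 and DNAJB9 held none of these elements. The core of the XBP1 element (UPRE), TGACGTGG, was in 0.612% of all windows and in none of those of the 10 genes. These are matches of letters and say nothing of binding in SW780 cells.

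None of the 10 genes passed the test between RC48 and Control. By edgeR's quasi-likelihood test over 3 libraries per group, with Benjamini-Hochberg adjusted p-values and a threshold of 0.05, 0 of 10 were called, where 2.21% of the 13055 genes tested were. At an unadjusted p-value under 0.05 there were 3, CHAC1 on the higher side and HSP90B1 and HERPUD1 on the lower, against 19.1% of all genes. DESeq2 called 0 of the 10 and 4.13% of all genes. All RC48 libraries lay above all Control libraries for 2 members, DDIT3 and CHAC1, where 17.4% of all genes did so. They lay below for 3 members, ASNS, HSP90B1 and HERPUD1, where 14.1% of all genes did so. For these 5 genes the exact two-sided permutation test of log2 CPM gave p = 0.1, the smallest value that 3 libraries against 3 allow.

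**Figure D1:**
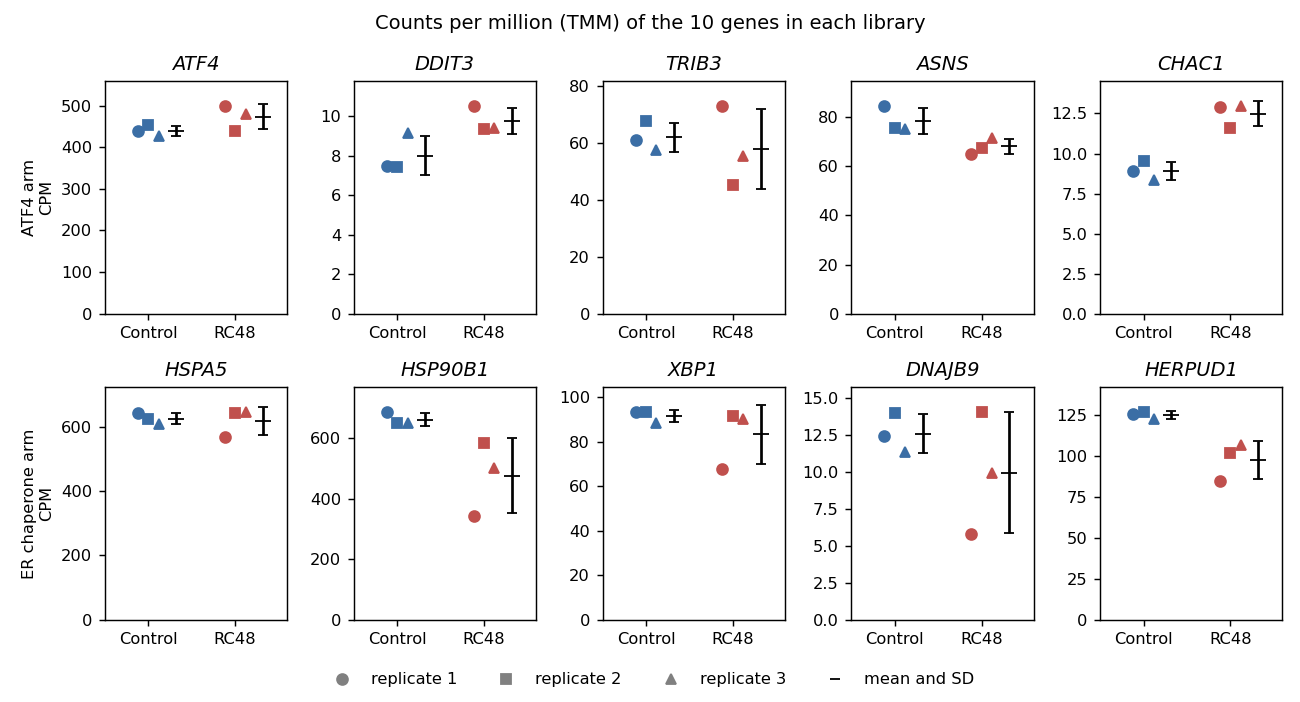
CPM of each of the 10 genes (vertical axes, linear and starting at 0) in the 3 Control libraries (blue) and the 3 RC48 libraries (red), with marker shapes for replicate numbers and black bars for mean and SD. Both groups separate in DDIT3, ASNS, CHAC1, HSP90B1 and HERPUD1, and RC48 replicate 1 is the lowest RC48 library in all 5 panels of the lower row.

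Per transcript length, ATF4 was the most abundant of the set and DNAJB9 the least. In Control cells, length-scaled levels (TPM) averaged 681 for ATF4, 471 for HSP90B1, 304 for HSPA5, 107 for XBP1, 86.6 for HERPUD1, 74.9 for ASNS, 55.1 for TRIB3, 19.99 for DDIT3, 13 for CHAC1 and 10.5 for DNAJB9. Each gene in this order lay above the next in every Control library, so no neighbours in the order overlapped. ATF4 was above 98.5% of the genes tested, whereas DDIT3 stood near the middle at 50.7% and DNAJB9 at 34.1%.

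ATF4 (chr22:39520559-39522686, RefSeq GRCh38.p14, as for the positions that follow), the transcription factor at the head of its arm, read 438, 453 and 427 CPM in Control replicates 1, 2 and 3 and 499, 439.9 and 479.6 CPM in RC48 replicates 1, 2 and 3. The groups overlapped, with RC48 replicate 2 inside the Control range and the other two above it. At a log2 fold change of 0.11 (standard error 0.11, 95% interval −0.14 to 0.36, adjusted p = 0.527 by edgeR), the interval allows ATF4 RNA to be between 0.91 and 1.28 times the Control level. After the GC correction the log2 fold change was −0.07.

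DDIT3 (chr12:57516588-57520517) encodes CHOP, a transcription factor of prolonged ER stress that is tied to cell death. Its CPM was 7.46, 7.42 and 9.13 in Control and 10.5, 9.37 and 9.41 in RC48, from 128 to 173 counts per library. All RC48 libraries lay above all Control libraries, with Control replicate 3 close to RC48 replicates 2 and 3. The log2 fold change of 0.29 (standard error 0.16, 95% interval −0.08 to 0.65) had an adjusted p = 0.310 (edgeR). With the GC correction it was 0.24 and the groups still did not overlap.

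CHAC1 (chr15:40953471-40956512) degrades glutathione and is a target of ATF4. It read 8.90, 9.50 and 8.36 CPM in Control and 12.9, 11.6 and 12.97 CPM in RC48. The RC48 libraries all stood above the Control libraries, and among the 10 genes CHAC1 had the highest log2 fold change, 0.48 (standard error 0.14, 95% interval 0.16 to 0.81), or 1.40-fold. The unadjusted p was 0.0093 and the adjusted p was 0.157 (edgeR). CHAC1 transcripts have a GC content of 61.8%, and after the GC correction its CPM was 9.71, 10.3 and 9.59 in Control and 9.18, 12.8 and 12.3 in RC48. RC48 replicate 1 then lay below all Control libraries while the other two stayed above, and the log2 fold change was 0.20 (edgeR adjusted p = 0.400). Without RC48 replicate 2, the library with no GC trend, CHAC1 was called, at 0.53 (edgeR adjusted p = 0.0382), where 14.1% of all genes were called higher.

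TRIB3 (chr20:380760-397559), a pseudokinase induced by ATF4 and CHOP that restrains AKT and ATF4 itself, had 60.9, 67.6 and 57.6 CPM in Control and 73.0, 45.2 and 55.5 CPM in RC48. RC48 replicate 1 was the highest of the 6 libraries and RC48 replicate 2 the lowest. The log2 fold change was −0.10 (standard error 0.19, edgeR adjusted p = 0.734), and it was 0.05 without RC48 replicate 2. TRIB3 is the member with the highest GC content, 62.0%. Its GC-corrected CPM was 66.4, 73.0 and 66.1 in Control and 52.0, 49.7 and 52.4 in RC48. All 3 RC48 libraries then lay below all Control libraries, and TRIB3 was called lower at −0.42 (standard error 0.08, 95% interval −0.60 to −0.23, edgeR adjusted p = 0.0188), where 2.44% of all genes were called lower in that fit. With the correction and without RC48 replicate 1, an alternative added after these values were seen, the log2 fold change was again −0.42 (edgeR adjusted p = 0.0076), but it was not called with the correction and a term for the replicate number (−0.41, edgeR adjusted p = 0.0647). Without the correction and without RC48 replicate 1 it was −0.31 (edgeR adjusted p = 0.170).

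ASNS (chr7:97851677-97928441) makes asparagine and is the textbook target of the CARE core printed above. It read 84.5, 75.7 and 75.3 CPM in Control and 65.1, 67.6 and 71.5 CPM in RC48. All RC48 libraries were below all Control libraries, on the opposite side to CHAC1, which carries the same element. The log2 fold change was −0.21 (standard error 0.12, 95% interval −0.48 to 0.07, edgeR adjusted p = 0.320). ASNS has a GC content of 43.9%, and after the GC correction the groups overlapped and the log2 fold change was 0.01.

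Of the ER chaperone arm, HSPA5 (chr9:125234853-125241343) is the master chaperone BiP, whose rise is the usual sign of an unfolded protein response. Its CPM was 643, 623 and 608 in Control and 568, 643 and 645 in RC48. The groups overlapped, with RC48 replicate 1 the lowest of the 6 libraries and RC48 replicates 2 and 3 just above the highest Control library. HSPA5 had a log2 fold change of −0.01 (standard error 0.11, edgeR adjusted p = 0.941). Its 95% interval, −0.27 to 0.24, allows HSPA5 RNA to be at most 1.18 times the Control level, and with the GC correction the upper bound was 0.29 on the log2 scale.

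HSP90B1 (chr12:103930410-103947926), the ER-resident HSP90 known as GRP94, read 687, 650.1 and 649.6 CPM in Control and 344, 586 and 500.5 CPM in RC48. All RC48 libraries lay below all Control libraries, but they spread far more among themselves, and RC48 replicate 1 was lowest. HSP90B1 had a log2 fold change of −0.47 (standard error 0.19, 95% interval −0.91 to −0.03, unadjusted p = 0.0379, adjusted p = 0.244, edgeR). After the GC correction the CPM was 627, 598 and 579 in Control and 478, 528 and 535 in RC48, the groups stayed apart, and the log2 fold change was −0.23 (edgeR adjusted p = 0.139). It was −0.29 without RC48 replicate 1 (edgeR adjusted p = 0.105) and −0.65 without RC48 replicate 2, where it was called (edgeR adjusted p = 0.0315) among the 14.1% of genes called lower.

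HERPUD1 (chr16:56932142-56944864) belongs to the machinery that removes misfolded proteins from the ER and is switched on by both ATF4 and ATF6. It had 126, 127 and 122.6 CPM in Control and 84.7, 102 and 107 CPM in RC48. The Control libraries were nearly equal and all RC48 libraries were below them. The log2 fold change was −0.36 (standard error 0.13, 95% interval −0.65 to −0.06, unadjusted p = 0.0239, adjusted p = 0.214, edgeR), or 0.78-fold. HERPUD1 has a GC content of 48.6%, near the median of all genes (49.9%), and the GC correction left its log2 fold change at −0.33 with a smaller standard error of 0.09 (edgeR adjusted p = 0.0685). With the correction and without RC48 replicate 1, HERPUD1 was called lower at −0.26 (edgeR adjusted p = 0.0442), and in that fit 11.7% of all genes were called in either direction.

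XBP1 (chr22:28794560-28800569), the transcription factor activated by IRE1, read 93.1, 93.2 and 88.4 CPM in Control and 67.8, 91.7 and 90.2 CPM in RC48. Only RC48 replicate 1 lay outside the Control range, and the log2 fold change was −0.14 (standard error 0.15, edgeR adjusted p = 0.542), or −0.02 without that library. DNAJB9 (chr7:108569874-108574850), a cochaperone of HSPA5 that depends on IRE1 and XBP1, had 12.4, 14.0 and 11.4 CPM in Control and 5.83, 14.1 and 9.96 CPM in RC48. RC48 replicate 1 was the lowest library and RC48 replicate 2 the highest, and the log2 fold change was −0.34 (standard error 0.29, edgeR adjusted p = 0.466). It was −0.08 without RC48 replicate 1 and −0.67 without RC48 replicate 2. DNAJB9 is the member with the lowest GC content, 40.4%, and with the GC correction the log2 fold change was −0.04.

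**Figure D2:**
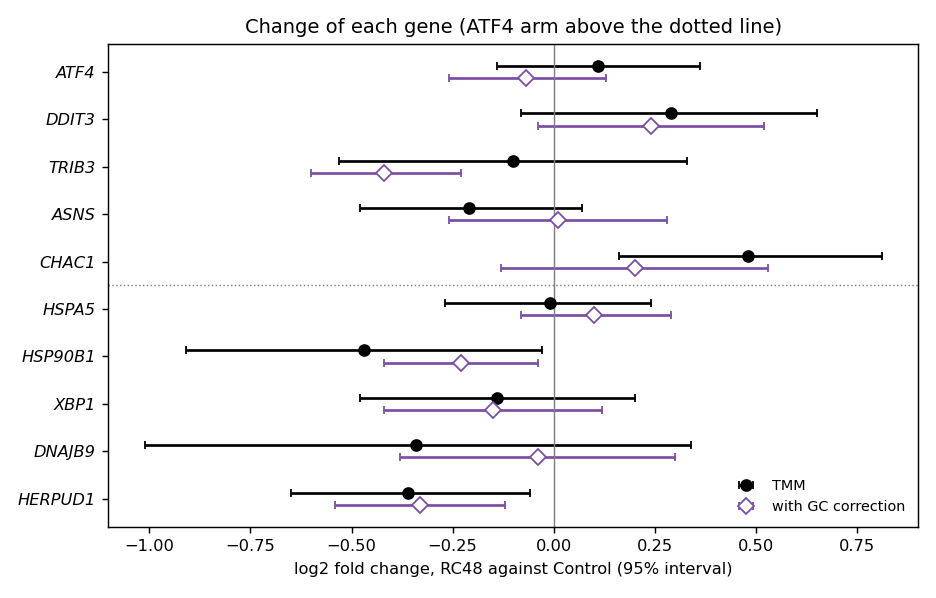
Log2 fold change of RC48 against Control for the 10 genes with 95% intervals, from edgeR on TMM-scaled counts (black circles) and with the GC correction (open diamonds). TRIB3 moves from −0.10 to −0.42 and CHAC1 from 0.48 to 0.20, while HERPUD1 stays at −0.36 and −0.33.

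The authors' own kind of test, limma on log2(TPM + 1), could use the 5 libraries with a deposited TPM and so dropped RC48 replicate 2. It called HSP90B1 (−0.80, adjusted p = 0.0270), HERPUD1 (−0.52, adjusted p = 0.0428) and DNAJB9 (−0.75, adjusted p = 0.0471) lower and no member of the ATF4 arm. In that test 16.5% of all genes were called lower, and the median log2 difference of all genes was −0.11, so that the 3 values are −0.70, −0.41 and −0.64 relative to it. Both RC48 libraries in that test are those with a GC trend, and the part of that trend in the calls was not tested.

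The distance between the arms differed among the RC48 libraries. Relative to the Control mean, the mean log2 CPM of the 5 ATF4-arm genes was 0.22, −0.01 and 0.12 in RC48 replicates 1, 2 and 3, and that of the 5 ER-arm genes was −0.64, −0.05 and −0.19. The difference between the arms was therefore 0.85 in RC48 replicate 1, 0.04 in replicate 2 and 0.31 in replicate 3, where the Control libraries ranged from −0.03 to 0.04. The order of the RC48 libraries was that of their GC trends, and the median GC content was 55.4% in the ATF4 arm and 46.0% in the ER arm. The part of the GC trend in the distance between the arms was not tested. After the GC correction the difference was 0.25, 0.05 and 0.09, with Control libraries between −0.04 and 0.08. RC48 replicate 2 then lay within the Control range, RC48 replicate 3 just outside it, and RC48 replicate 1 above it. The median log2 fold change was 0.11 in the ATF4 arm, −0.34 in the ER arm and 0.02 over all genes, and 0.01, −0.15 and 0.01 with the correction. The difference of the arms' medians, 0.44, was 0.16 with the correction and 0.14 without RC48 replicate 1.

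**Figure D3:**
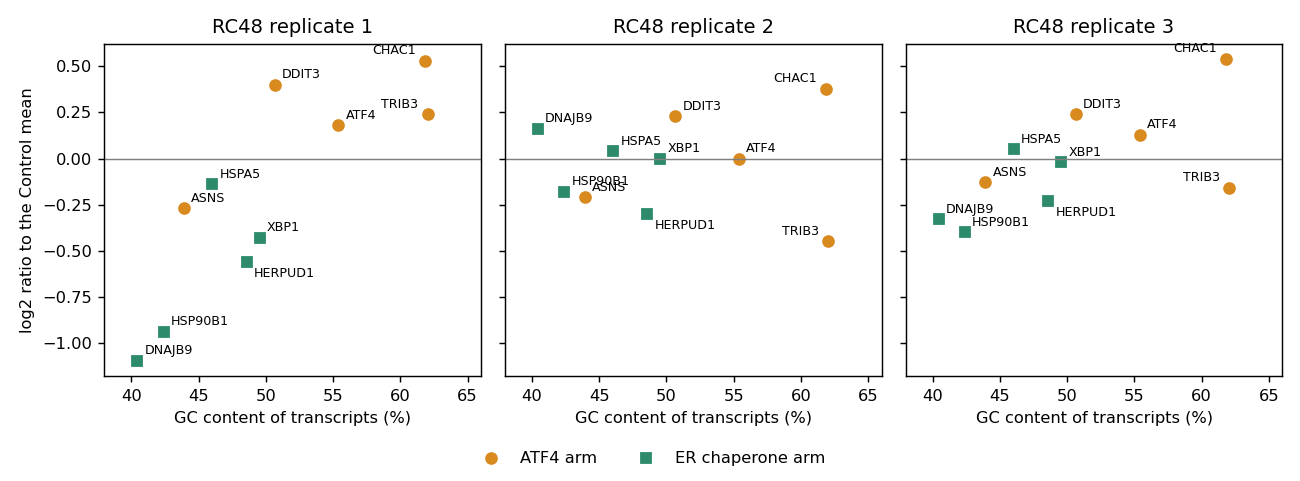
Log2 ratio of each gene to its Control mean (vertical axis) against the GC content of its transcripts in percent (horizontal axis), in 1 panel per RC48 library, with the ATF4 arm as circles and the ER chaperone arm as squares. In RC48 replicate 1 the ratio runs from −1.10 for DNAJB9 to 0.53 for CHAC1, and in replicate 2 from −0.45 for TRIB3 to 0.38 for CHAC1.

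**Figure D4:**
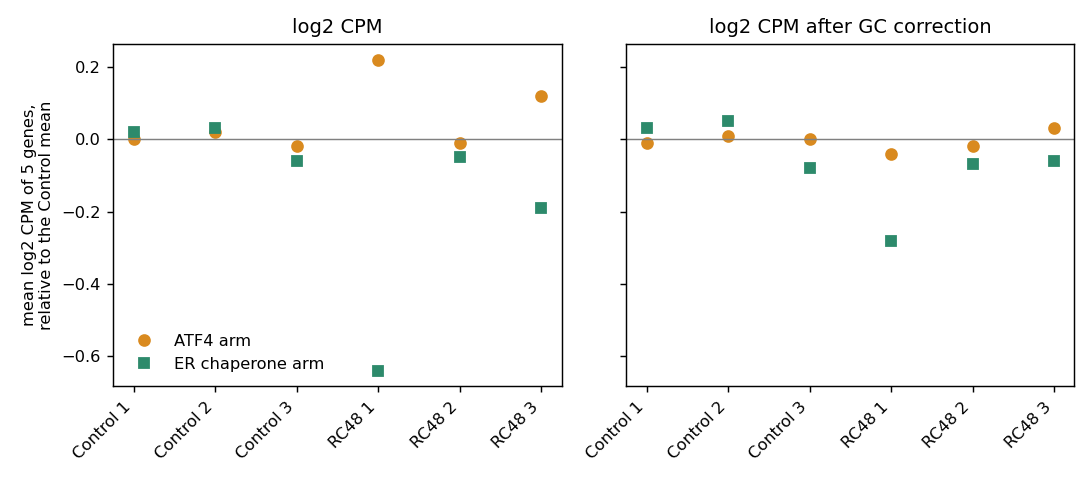
Mean log2 CPM of the 5 genes of each arm relative to the Control mean, by library, before (left) and after (right) the GC correction. On the left the arms are 0.85 apart in RC48 replicate 1 and 0.04 apart in replicate 2, and on the right 0.25 and 0.05.

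Upstream of both arms, 0 of 23 listed sensors and eIF2 regulators were called in either direction, against 2.21% of all genes. All RC48 libraries lay above all Control libraries for 3 and below for 4, or 4 and 2 with the GC correction, where 17.4% and 14.1% of all genes did so, and 17.5% and 16.1% with the correction. PERK (EIF2AK3), the ER kinase for eIF2, had a mean of 29.4 ± 1.73 CPM in Control and 26.1 ± 5.35 in RC48 (SD, n = 3 each), and the log2 fold change was −0.17. It was 0.07 with the GC correction. The log2 fold changes were −0.08 for ERN1 and −0.03 for ATF6, and −0.15, −0.06 and −0.11 for the eIF2 kinases of haem shortage (EIF2AK1), double-stranded RNA (EIF2AK2) and amino acid shortage (EIF2AK4). With the GC correction, those of ATF6 (0.29), EIF2AK2 (0.29) and EIF2AK4 (0.08) turned positive, those of ERN1 (−0.14) and EIF2AK1 (−0.08) did not, and none of these genes was called. For ATF6 and EIF2AK2 all corrected RC48 libraries lay above the Control libraries. EIF2AK2 was called higher with the correction and without RC48 replicate 1, at 0.32 (edgeR adjusted p = 0.0144), where 11.7% of all genes were called. PPP1R15A (GADD34), which returns eIF2 to its unphosphorylated state and is itself a stress gene, had 218, 226 and 212 CPM in Control and 262, 294 and 294 in RC48. All RC48 libraries lay above the Control libraries, and the log2 fold change was 0.37 (standard error 0.11, edgeR adjusted p = 0.157). It was called without RC48 replicate 1, at 0.42 (edgeR adjusted p = 0.0154), where 6.82% of all genes were called. With the GC correction its log2 fold change was 0.17.

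Among the other ATF4 targets, 41 of 43 could be tested, 1 was called higher and 0 lower (2.21% of all genes were called), and the median log2 fold change was 0.01. With the GC correction 2 were called higher, STC2 and ATF3, and 1 lower, where 4.66% and 2.44% of all genes were. The lower one was PYCR1, an enzyme of proline synthesis named here after its value was seen, at −0.48 (edgeR adjusted p = 0.0212). The corrected median was −0.07. STC2, a secreted glycoprotein induced by ER stress and hypoxia, was the called gene, with 13.1, 12.1 and 14.6 CPM in Control and 23.1, 21.3 and 21.9 CPM in RC48. The RC48 libraries were well above the Control libraries and close to each other, and STC2 rose by 0.74 on the log2 scale (standard error 0.14, edgeR adjusted p = 0.0396). With the GC correction the rise was 0.55 (edgeR adjusted p = 0.0338). The call was lost in 8 of 17 alternatives. These were the fits without any 1 of the Control libraries and without RC48 replicate 3, where the log2 fold change lay between 0.67 and 0.81. The others were edgeR with library sizes alone (adjusted p = 0.059), with a term for the replicate number (0.0749) and with that term and the GC correction (0.0571), and limma on log2(TPM + 0.1) (adjusted p = 0.0501).

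RC48 libraries lay above all Control libraries for 9 of these 41 targets and below them for 9, where 17.4% and 14.1% of all genes did so. The counts were 5 and 11 with the GC correction, against 17.5% and 16.1% of all genes. ATF3, a stress-induced transcription factor, had 84.0, 85.2 and 82.9 CPM in Control and 104, 116 and 118 CPM in RC48, and its log2 fold change was 0.42 (standard error 0.11, edgeR adjusted p = 0.124). It was called with the GC correction at 0.37 (edgeR adjusted p = 0.0437), where 4.66% of all genes were called higher, and by DESeq2. CEBPB, a partner of ATF4 on CARE sequences, had a log2 fold change of 0.33 and 0.05 with the correction. SLC7A11, the cystine transporter, had 109, 104 and 121 CPM in Control and 53.6, 112 and 77.0 CPM in RC48, which overlapped, with a log2 fold change of −0.46 and −0.08 with the correction. PSAT1, of serine synthesis, was too low to test.

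Without RC48 replicate 1, edgeR called 7 genes of the 3 lists together, 4 higher and 3 lower, out of 105 tested, a share close to the 6.82% of all genes called in that fit. Chosen here after their values were seen, the lower ones were MTHFD2 (−0.45), an enzyme of mitochondrial folate metabolism, IARS1 (−0.44), which charges tRNA with isoleucine, and XPOT (−0.40), which exports tRNA from the nucleus. The higher ones were STC2 (0.69), ATF5 (0.48), ATF3 (0.47) and PPP1R15A (0.42). DESeq2 on all libraries called 6 of these, all but PPP1R15A, where 4.13% of all genes were called. With the GC correction on all libraries only STC2 and ATF3 of the 7 were called. The log2 fold change was then 0.25 for ATF5, −0.28 for MTHFD2, −0.18 for IARS1 and −0.17 for XPOT. With the correction and without RC48 replicate 1, all but IARS1 and XPOT were called, with MTHFD2 at −0.38, ATF5 at 0.37 and PPP1R15A at 0.34. In that fit 11.7% of all genes were called in either direction.

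Of the other ER folding and degradation genes, 41 of 42 could be tested and 0 were called (2.21% of all genes were), with a median log2 fold change of −0.12. The median was 0.02 with the GC correction, and 1 gene was called higher, where 4.66% of all genes were. It was SEC24D, of the coat of vesicles that leave the ER, likewise named after its value was seen, at 0.50 (edgeR adjusted p = 0.0439). All RC48 libraries lay above all Control libraries for 6 and below for 4, at or under the share of all genes (17.4% and 14.1%). SDF2L1, an ER protein of the HSPA5 complex, had 25.9, 26.7 and 22.3 CPM in Control and 68.2, 22.8 and 31.3 CPM in RC48, so that RC48 replicate 1 alone stood far above the others. Its log2 fold change was 0.71 (standard error 0.37, edgeR adjusted p = 0.30) and 0.11 without RC48 replicate 1. CALR, a lectin chaperone, had a log2 fold change of 0.15, PDIA4, a disulfide isomerase, of −0.16, and DNAJC3, an inhibitor of PERK and cochaperone of HSPA5, of −0.28. These were 0.02, −0.02 and −0.05 without RC48 replicate 1, and −0.04, −0.26 and 0.02 with the GC correction. With the correction SDF2L1 was at 0.31, and none of these genes was called.

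**Figure D5:**
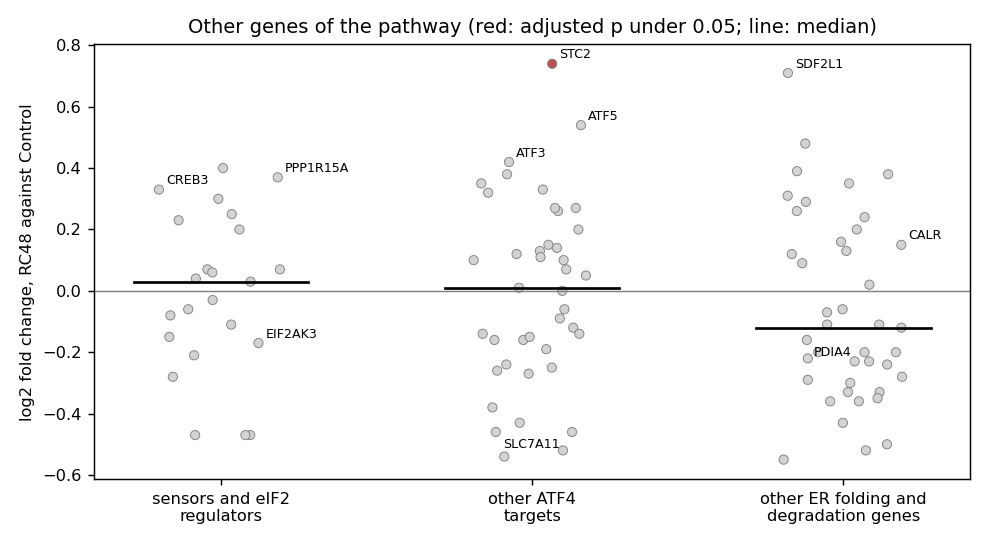
Log2 fold change of RC48 against Control for the 23, 41 and 41 tested genes of the 3 other lists, each point a gene with random horizontal spread, the line the median and red an adjusted p-value under 0.05 (edgeR). STC2 at 0.74 is the red point, and the medians are 0.03, 0.01 and −0.12.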

How the data were processed

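RNA of 3 Control and 3 RC48-exposed SW780 samples was sequenced, and the authors cleaned the reads (SOAPnuke), aligned them by Bowtie2 (genome build hg38 per the submitters' processing notes) and counted them with RSEM. The authors deposited estimated counts per gene, without normalization, of which 11.7% to 15.0% per library were not whole, and TPM for 5 of 6 libraries. TPM of RC48 replicate 2 was computed from its counts and the lengths that the other libraries imply. The annotation version is not given in the sources used here.

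Counts were rounded, filtered with filterByExpr, scaled by TMM and tested with edgeR 4.0.16 (R 4.3.3, quasi-likelihood, threshold 0.05, no covariate). The GC correction fitted a loess trend (span 0.3) on transcript GC content to each library's log2 CPM relative to the gene's mean over the libraries. These trends, centred across libraries, entered the edgeR model as offsets, so that Control values shift as well. GC content was known for 99.4% of genes. Motifs were searched on both strands. The 10 genes, the lists, the tests and the GC correction were chosen with earlier results of these data known. Named are the 10 genes, the 6 sensors and eIF2 kinases, PPP1R15A, ATF3, SLC7A11, PSAT1, CEBPB, PDIA4, CALR, SDF2L1, DNAJC3 and up to 6 called genes per list and direction. The edgeR fit without the GC correction was tested on simulated counts that had no GC trend, equal scatter in both groups and larger changes than those of the 10 genes. The GC correction and the other alternatives were not tested in this way. Alternatives were DESeq2 1.42.0, limma 3.58.1 on log2(TPM + 1) and log2(TPM + 0.1), RLE and library-size scaling, no filter, a minimum of 10 counts per library, a replicate block, the GC correction alone, with the block and without RC48 replicate 1, and each library left out.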

Additional observations from a re-analysis of the deposited data

How the results depend on the processing

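The number of the 10 genes called, 0, was 1 with the GC correction, 2 with that correction and without RC48 replicate 1, 2 and 3 by limma on log2(TPM + 0.1) and log2(TPM + 1), and 0 to 2 with 1 library left out. Of these, the ATF4 arm had 1, 1, 0, 0 and 0 to 1, and the ER arm 0, 1, 2, 3 and 0 to 1. The cause of these changes was not tested. The other 12 of 17 alternatives called none. Of all genes, the GC correction called 4.66% higher and 2.44% lower, and 11.7% in either direction without RC48 replicate 1. Limma called 16.5% lower with a pseudocount of 1, and 1899 of 12363 genes lower with 0.1. Without RC48 replicate 2, the fit that called 2 of the 10, 14.1% of all genes were called each way. The genes called by limma were HERPUD1 (−0.53 and −0.52), HSP90B1 (−0.81 and −0.80) and, with a pseudocount of 1, DNAJB9 (−0.75). The GC correction called TRIB3 (−0.42, and −0.42 without RC48 replicate 1, which also called HERPUD1 at −0.26). With 1 library left out, CHAC1 ranged from 0.43 to 0.53, HSP90B1 from −0.65 to −0.29, TRIB3 from −0.31 to 0.049, DNAJB9 from −0.67 to −0.08, XBP1 from −0.22 to −0.018 and HSPA5 from −0.07 to 0.038. The sign changed with the GC correction in ASNS (0.012), ATF4 (−0.07) and HSPA5 (0.10), with the replicate block added in ASNS (0.0056), ATF4 (−0.07) and HSPA5 (0.10), with the correction and without RC48 replicate 1 in ATF4 (−0.0044), HSPA5 (0.08) and DNAJB9 (0.07), and in ATF4 by both limma fits (−0.02 each). DDIT3 and XBP1 kept their sign and stayed uncalled in all 17. The arms' difference of medians, 0.44, was 0.14 without RC48 replicate 1, 0.16 with the GC correction, with or without the block, and 0.02 with the correction and without RC48 replicate 1. In the other 13 alternatives it lay between 0.38 and 0.54.

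The 3 other lists, with 1 called gene of 105 tested, had 6 by DESeq2, 4 with the GC correction, and 12 with it and without RC48 replicate 1. They had 0 with library sizes alone, 21 and 23 by limma (pseudocounts 0.1 and 1) and 0 to 25 with 1 library left out. With a replicate block there were 0, and 0 with the block and the GC correction. Of all genes, DESeq2 called 4.13%, and the GC correction without RC48 replicate 1 called 11.7%. With the correction on all libraries 4.66% were called higher and 2.44% lower. Limma with a pseudocount of 1 called 16.5% lower, and 19 of the 23 were lower. The 25 were without RC48 replicate 2, 8 higher and 17 lower, where 14.1% of all genes were called each way. Same-numbered libraries had deviations that correlated at 0.026, −0.161 and −0.015, and differently numbered ones at −0.136 to 0.169. With 3 libraries per group, such values show no pairing by number and cannot exclude it. Over all genes, 258 higher and 30 lower calls became 609 and 318 with the GC correction, 792 and 2044 by limma on log2(TPM + 1), 727 and 1899 on log2(TPM + 0.1), 488 and 188 by DESeq2, 422 and 181 with the block and the correction, 606 and 291 without RC48 replicate 1, 1862 and 1864 without RC48 replicate 2, and 66 to 88 higher and 2 to 5 lower without any of the others. With 3 libraries per group, the 95% intervals of the 10 genes are 0.50 to 1.35 wide on the log2 scale.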

Other observations

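Within the list of other ATF4 targets, groups of shared function were formed after the values were seen. The 12 aminoacyl-tRNA synthetases, which charge tRNAs with amino acids, had a median log2 fold change of −0.15. Of these, 3 lay above and 6 below all Control libraries in every RC48 library, where 17.4% and 14.1% of all genes did so, and 0 were called. Their median GC content was 46.8%, and the median log2 fold change with the GC correction was −0.04. With it 1 lay above, WARS1, and 2 below, AARS1 and EPRS1, where 17.5% and 16.1% of all genes did so. The 6 amino acid transporters had a median of −0.05, with 1 above and 0 below, against the same 17.4% and 14.1% of all genes. After the GC correction the median was −0.12, with 1 above and 2 below, against 17.5% and 16.1%. The 5 subunits of EIF2B, the exchange factor for eIF2 that phosphorylated eIF2 blocks, were from the list of sensors and regulators and had a median of 0.07 with no member separating the groups.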
